A study of Mus musculus with 250 samples.

Results

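The interleukin 6 (IL-6) family genes described here are the ligands Il6, Osm and Lif, the receptor chains Il6ra, Osmr, Lifr and Il6st, the transcription factor Stat3 and its feedback inhibitor Socs3. They were taken by name, through probe sets that carry that single gene symbol, which gave 9 of the 18193 genes measured and 23 of the 45101 probe sets of the array. The samples came from female FVB mice, 25 with a breast tumor and 25 controls, in 5 tissues, namely breast, liver, spleen, thymus and the cells of blood after removal of plasma. The mice with tumors carried both MMTV-rtTA and TetO-NeuNT, so that doxycycline induced the activated Her2/Neu oncogene under a promoter that is active mainly in mammary epithelium. Controls were littermates with TetO-NeuNT only, which lack the inducer protein. Both groups drank water with doxycycline (2 mg/mL) and sucrose (5%), begun at an age of 8 weeks, and both mice of a matched pair were killed when the tumor measured 1 cm. Breast samples of tumor-bearing mice are the tumor itself, whereas the other tissues of these mice are labelled normal. The design asks how a mammary tumor and the distant tissues of its host differ from those of an age- and cage-matched mouse.

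Ligands of this family signal through gp130, the shared signal chain encoded by Il6st, together with a further receptor chain. The receptor complex activates Janus kinases and through them STAT3. IL-6 uses the chain encoded by Il6ra, oncostatin M that encoded by Osmr, and leukaemia inhibitory factor that encoded by Lifr. Active STAT3 switches on Socs3, whose product blocks gp130 and so ends the signal. In liver the pathway is known for driving acute phase proteins, and in the bone marrow and blood STAT3 and Socs3 also act downstream of the granulocyte colony-stimulating factor receptor.

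The 250 arrays gave 25 matched pairs in each tissue, and array medians lay between 25.2 in blood and 129 in thymus (tissue medians), so that the tissues look separately normalized. Levels below are linear intensities and are compared within a tissue and a probe set only. In 7 of the 250 arrays the mean of the tissue's own marker genes lay more than 2 log2 units under the median of the tissue, a limit chosen after the data were seen. They are the arrays labelled breast control 4, liver control 2, spleen control 13 and 21, spleen tumor-bearing 21, and thymus control 11 and 20. Liver control 2 had a median Spearman correlation of 0.324 with the other liver controls and a hepatocyte marker mean of 11.5, against 14.1 for the median liver array. Spleen tumor-bearing 21 had a thymocyte marker mean of 11.5, against 6.16 for the median spleen array, and thymus control 20 had a B cell marker mean of 11.5 against 8.13 for the median thymus array. No other array fell under that limit for the markers of its labelled tissue. The limit finds a loss of these markers only, which in blood were 4 erythroid genes, and cannot show added material from another tissue. In blood the hepatocyte marker mean ran from 4.91 to 10.46 in controls and from 4.99 to 8.75 in tumor-bearing mice. Its part in the blood values was not tested. A wider set of pairs (3 breast, 5 liver, 2 spleen, 3 blood and 9 thymus pairs) held an array that correlated poorly with its own group. Values without those pairs are given for some of the results that they change.

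Changes are log2 differences, tumor-bearing minus matched control, given as mean ± SE over 25 pairs, and a gene was said to rise or fall at an adjusted p under 0.05 in limma with the pair as a block. In liver 5 of the 9 genes rose (Il6ra, Osmr, Il6st, Stat3 and Socs3) and 0 fell, where 7.89% of all genes rose and 2.28% fell. In blood 4 rose (Osm, Il6ra, Stat3 and Socs3) and 0 fell, where 8.66% of all genes rose and 4.27% fell. In spleen 4 rose (Il6, Osm, Osmr and Socs3) and Il6st fell, where 22.4% of all genes rose and 18.3% fell. In breast 5 rose (Il6, Lif, Osmr, Stat3 and Socs3) and 4 fell (Osm, Il6ra, Lifr and Il6st), in a tissue where 30% of all genes rose and 32.3% fell. In thymus 0 of the 9 rose and 0 fell, where 0.011% of all genes rose and 0% fell. At an unadjusted p under 0.05, 2 of the 9 were higher in thymus (Osmr and Lifr), 1 was lower in blood (Il6st) and 0 were lower in liver, where 3.04% of all genes were higher in thymus, 11.2% lower in blood and 5.99% lower in liver. In spleen, Lif (higher) and Lifr (lower) were below that unadjusted threshold without being called. In whole tissue, fewer cells of a type and less RNA per cell cannot be told apart, and the same holds for more of either. Without the pairs that hold the 7 arrays poor in their tissue's markers, the counts of genes that rose were the same (5 in breast, 5 in liver, 4 in spleen and 0 in thymus), and those that fell became 3 in spleen, with Il6ra and Lifr beside Il6st. The share of all genes called in that setting is not given here. The samples carry an earlier (10 pairs) and a later (15 pairs) series of sample numbers. In the earlier pairs alone, some calls were lost with changes of like or larger size and larger errors: in liver Il6ra (1.09 ± 0.37, against 0.37 ± 0.06 in the later pairs), Il6st (1.36 ± 0.58 against 0.81 ± 0.06) and Stat3 (1.55 ± 0.51 against 1.02 ± 0.06), and in blood Osm (1.10 ± 0.34 against 0.66 ± 0.19), Il6ra (0.74 ± 0.35 against 0.80 ± 0.19) and Stat3 (1.04 ± 0.29 against 1.14 ± 0.26). All 6 were called in the later pairs alone. The earlier liver pairs include pairs 2 and 7, whose controls correlated poorly with their group (0.324 and 0.780). These 2 pairs had the largest earlier changes of Il6ra (4.02 and 2.11), Il6st (6.31 and 2.30) and Stat3 (5.88 and 2.37). The earlier liver means and errors of these genes include them. In breast Il6, Osm, Lif and Il6ra were not called in the earlier pairs.

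**Figure D1:**
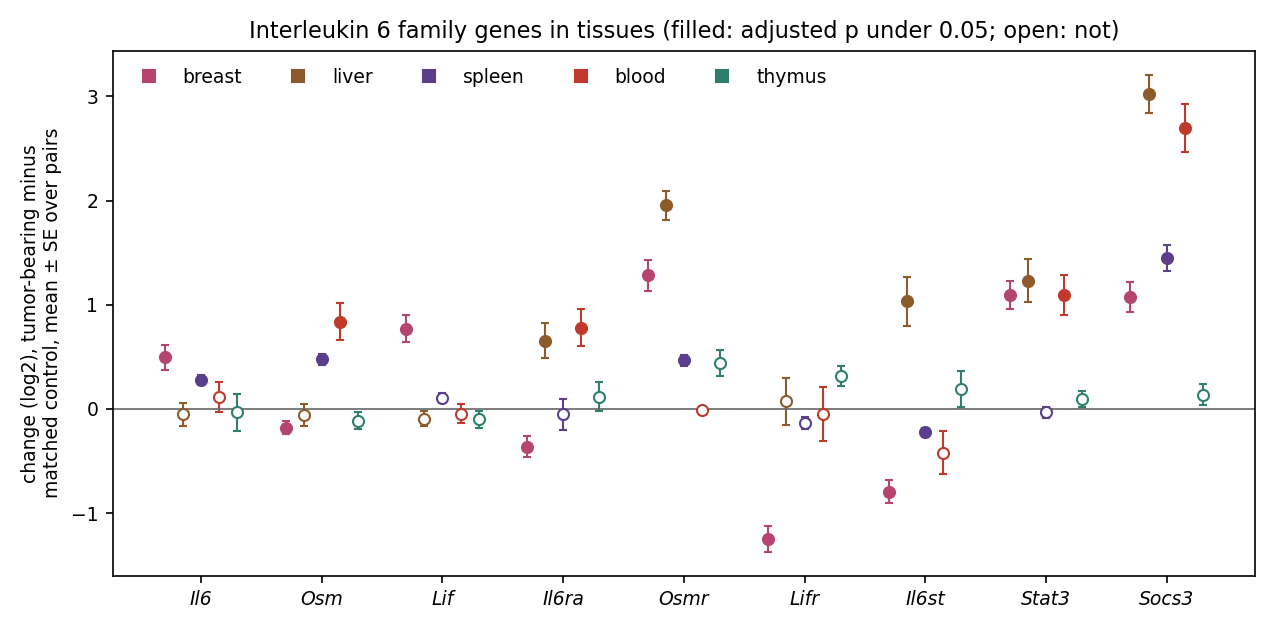
Change of each of the 9 genes (x axis) in 5 tissues, as log2 difference between tumor-bearing and matched control mice (y axis), with points for the mean over 25 pairs and bars for the SE. Filled points passed an adjusted p of 0.05. The liver and blood points of Socs3 lie highest, at 3.02 and 2.70, and the breast point of Lifr lies lowest, at -1.25.

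Among the ligands, Il6 was dim everywhere. It rose in breast, where controls lay between 14.5 and 42.7 (median 17.6) and tumors between 15.9 and 64.1 (median 23.6). The groups overlapped over most of their range, and 20 of 25 pairs were higher in the tumor (change 0.49 ± 0.12, adjusted p = 0.000615). With the Gapdh 3 prime to 5 prime ratio, a sign of RNA quality that differed between the breast groups, as a covariate, the change was 0.31 ± 0.15 and was no longer called (adjusted p = 0.0893). In spleen it was higher in 23 of 25 pairs by a smaller step, from a median of 22.9 to 26.5 (change 0.28 ± 0.05, adjusted p = 4.43e-05). In liver and blood much of the Il6 signal lay at the floor of 11.3 applied to dim values: 14 control and 8 tumor-bearing arrays in liver, and 8 control and 13 tumor-bearing arrays in blood. Single arrays stood out there and in thymus. Il6 read 84.9 in liver control 2, 513 in blood control 21 with 295 in its tumor-bearing partner, and 273 in thymus control 2. The changes of Il6 in liver (-0.05 ± 0.11), blood (0.11 ± 0.14) and thymus (-0.03 ± 0.17) did not pass the test. Without the 5 liver pairs holding an outlying array, liver control 2 among them, Il6 was called higher in liver by 0.10 ± 0.03 (adjusted p = 0.0341, 20 pairs). There 12 pairs were higher and 4 lower, with values near the floor, and 37.5% of all liver genes were called in either direction.

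Osm, which encodes the oncostatin M made largely by myeloid cells, was higher in spleen and blood. In spleen control arrays ran from 119 to 238 (median 199) and tumor-bearing arrays from 139.6 to 373 (median 273). The groups overlapped, but the tumor-bearing mouse was the higher one in all 25 pairs (change 0.48 ± 0.05, adjusted p = 5.19e-08). In blood the spread was wider, with controls between 30.4 and 982 (median 87.1) and tumor-bearing mice between 57.3 and 853 (median 157). There 19 of 25 pairs were higher (change 0.84 ± 0.18, adjusted p = 0.00100). The lowest control value, 30.4, is blood control 9, an array that correlated poorly with its group (0.666). Without the 3 blood pairs holding an outlying array the change of Osm was 0.64 ± 0.15 (22 pairs). In breast Osm fell slightly, by 0.18 ± 0.06 on the log2 scale, from a median of 47.7 to 43.3 (adjusted p = 0.0122), and this call was lost after quantile normalization (-0.05, adjusted p = 0.474). It was near its control level in liver (-0.06 ± 0.11, median 22.4 in both groups) and thymus (-0.11 ± 0.08), neither of which passed the test.

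Lif rose in breast, from a median of 38.8 in controls (28.4 to 112) to 65.1 in tumors (31.8 to 156). The ranges overlapped, with 22 of 25 pairs higher (change 0.77 ± 0.13, adjusted p = 6.79e-06). This rests on 1 of its 2 probe sets (1421207_at). The other (1450160_at) was dimmer, at medians of 16.1 and 16.4, and did not pass the test (0.03 ± 0.03). No change of Lif passed in liver (-0.09 ± 0.07), spleen (0.11 ± 0.05, adjusted p = 0.0676), blood (-0.05 ± 0.09) or thymus (-0.10 ± 0.08).

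Among the receptor chains other than gp130, Osmr, the partner of gp130 in the oncostatin M receptor, differed most clearly. In liver it ran from 28.1 to 154 in controls (median 108) and from 175 to 746 in tumor-bearing mice (median 407). The groups did not overlap, and all 25 pairs were higher (change 1.96 ± 0.14, a 3.88-fold rise, adjusted p = 1.23e-11). In all, 37 genes, or 0.203% of those tested, separated the liver groups fully in either direction. Osmr, Stat3 and Socs3 were 3 of them. In breast Osmr rose from a median of 1296 (368 to 3321) to 3273 (952 to 4616), with overlapping groups and 23 of 25 pairs higher (1.28 ± 0.15, adjusted p = 1.54e-08). In spleen it rose from 740.3 to 977.9 (0.47 ± 0.05, adjusted p = 6.85e-08, 24 of 25 pairs). In blood it was at the floor in 22 control and 24 tumor-bearing arrays, so no change could be measured. In thymus it was higher in 19 of 25 pairs (0.44 ± 0.12) without passing the adjusted test (adjusted p = 0.727). A second probe set (1418675_at) also rose in breast (1.48 ± 0.18) and liver (1.34 ± 0.20) but was not called in spleen (0.17 ± 0.08, adjusted p = 0.0847). The third (1459217_at), dim throughout, rose in breast only (0.85 ± 0.07).

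Il6ra, the chain that gives a cell its response to IL-6, moved in different directions. In liver it rose from a median of 574 (52.6 to 851) to 802 (474 to 1226), with overlapping groups and 23 of 25 pairs higher (0.66 ± 0.16, adjusted p = 0.00509). The lowest value, 52.6, belongs to liver control 2. Without that pair the change was 0.52 ± 0.09 (adjusted p = 5.51e-05, 24 pairs). In blood it rose from 233 (72.7 to 457) to 369.7 (215 to 915), again with overlap (0.78 ± 0.18, adjusted p = 0.00227, 21 of 25 pairs). Without the 3 blood pairs holding an outlying array the change was 0.60 ± 0.15 (22 pairs). In breast it fell by 0.36 ± 0.10 (adjusted p = 0.00217), from 169 to 133, with 17 of 25 pairs lower, and the mean of its probe sets was not called there (-0.16 ± 0.07, adjusted p = 0.0558). In spleen 19 of 25 pairs were lower, yet the mean change was -0.05 ± 0.15 (adjusted p = 0.805). Spleen controls 13 and 21, both poor in B cell markers, read 87.2 and 73.8 against a control median of 736. Without these pairs Il6ra fell in spleen by 0.25 ± 0.05 (adjusted p = 8.71e-05, 23 pairs). A second Il6ra probe set (1422270_a_at) rose in blood (0.44 ± 0.10, adjusted p = 0.00348). With all pairs it did not pass in liver (0.31 ± 0.11, adjusted p = 0.0913) or breast (0.05 ± 0.07). Without the pairs holding an outlying array it rose in liver (0.22 ± 0.06, adjusted p = 0.00697, 20 pairs). In that setting 29.4% of liver probe sets were called in either direction. It then also fell in spleen (-0.18 ± 0.07, adjusted p = 0.0327, 23 pairs).

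**Figure D2:**
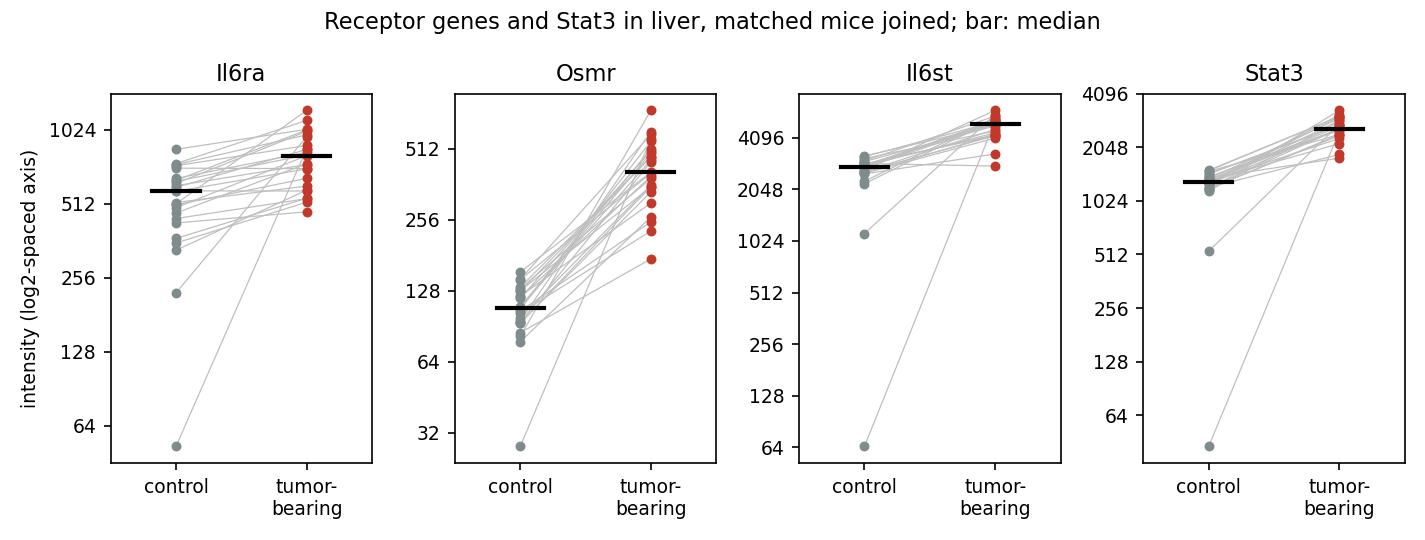
Intensity of Il6ra, Osmr, Il6st and Stat3 in every liver array (y axis, log2-spaced), control and tumor-bearing, with matched mice joined by a line and a bar at the median. The Osmr and Stat3 groups do not overlap, and the lowest control point is liver control 2 in the Il6ra, Il6st and Stat3 panels and liver control 7 in the Osmr panel.

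Lifr, the receptor chain for leukaemia inhibitory factor, fell in breast. Controls ran from 1073 to 3189 (median 2009) and tumors from 467 to 1544 (median 810.2). The ranges overlapped between 1073 and 1544, and 24 of 25 pairs were lower (-1.25 ± 0.12, adjusted p = 1.24e-09). Of its other probe sets in breast, 1450207_at fell by 0.36 ± 0.06 and 1425107_a_at was not called (-0.13 ± 0.12, adjusted p = 0.350). Without the breast pairs holding an outlying array, 1425107_a_at fell there too (-0.25 ± 0.09, adjusted p = 0.0157, 22 pairs). In liver the 3 Lifr probe sets differed. The one with the highest mean over all arrays (1454984_at) had medians of 3026 in controls and 2741 in tumor-bearing mice (0.07 ± 0.23, adjusted p = 0.869), with 17 of 25 pairs lower. Probe set 1425107_a_at had medians of 5124 and 2966 and was lower in 24 of 25 pairs (-0.63 ± 0.27, adjusted p = 0.147). The exception is pair 2, whose control, the array poor in hepatocyte markers, read 79.9 and 69.4 on these probe sets. Without the 5 liver pairs that held an outlying array, an alternative chosen after the data were seen, 1425107_a_at fell in 20 of 20 pairs (-0.78 ± 0.07, adjusted p = 9.42e-09). The highest-mean probe set then fell by 0.19 ± 0.06, in 14 of 20 pairs. In that setting 29.4% of liver probe sets and 37.5% of liver genes were called in either direction, against 7.59% of probe sets with all pairs. What 1425107_a_at detects beyond the other sets was not examined. Lifr did not pass in spleen (-0.13 ± 0.06, adjusted p = 0.0826), blood (-0.05 ± 0.26) or thymus (0.32 ± 0.09, 21 of 25 pairs higher, adjusted p = 0.844).

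**Figure D3:**
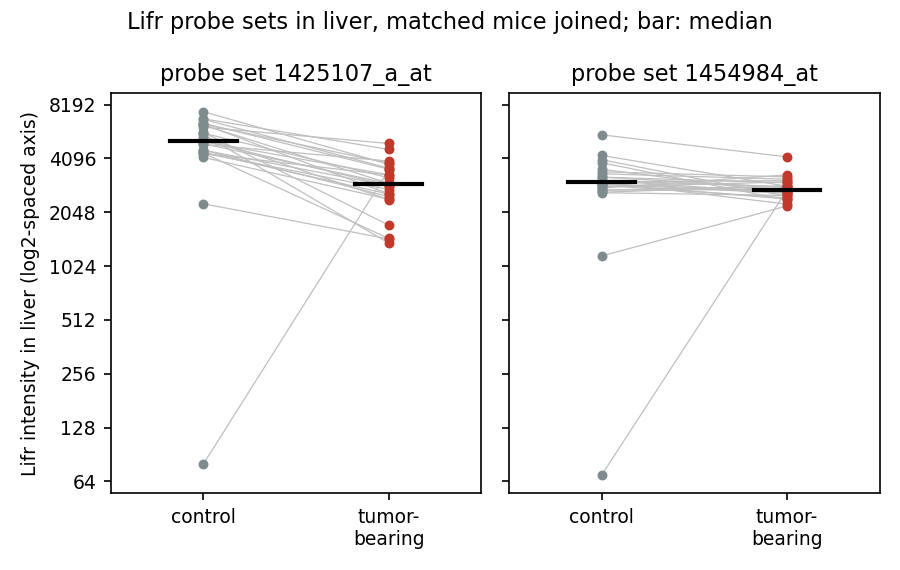
Lifr intensity in liver (y axis, log2-spaced) on the probe sets 1425107_a_at and 1454984_at, control and tumor-bearing, with matched mice joined and a bar at the median. On the first, 24 of 25 lines go down, from a median of 5124 to 2966. The line that rises steeply in both panels is pair 2.

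Il6st, the gp130 chain shared by the whole family, rose in liver and fell in breast and spleen. In liver controls ran from 64.8 to 3206 (median 2772) and tumor-bearing mice from 2802 to 5927 (median 4923). The groups overlapped at the edge, and 24 of 25 pairs were higher (1.03 ± 0.23, adjusted p = 0.00176). The value of 64.8 is liver control 2. Without its pair the change was 0.81 ± 0.09 (adjusted p = 1.87e-08). All 4 Il6st probe sets rose in liver, with changes between 0.97 and 1.19. In breast Il6st fell from a median of 3226 to 1581 (-0.79 ± 0.11, adjusted p = 2.48e-07, 22 of 25 pairs lower). There 3 of the 4 probe sets fell, while the dim 1421239_at was higher in 16 of 25 pairs and not called (0.19 ± 0.12, adjusted p = 0.165). In spleen it fell from 2551 to 2148 (-0.22 ± 0.04, adjusted p = 7.34e-05, 23 of 25 pairs lower), and all 4 probe sets fell there. In blood 19 of 25 pairs were lower (-0.42 ± 0.21, adjusted p = 0.199). Without the 3 blood pairs holding an outlying array it fell by 0.63 ± 0.17 (adjusted p = 0.00764). Thymus showed no called change (0.19 ± 0.17).

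Stat3, the transcription factor downstream of gp130, rose in breast, liver and blood. In liver controls ran from 42.8 to 1520 (median 1309) and tumor-bearing mice from 1779 to 3300 (median 2608). The groups did not overlap, and all 25 pairs were higher (1.23 ± 0.21, adjusted p = 4.92e-05). Without the pair of liver control 2, the source of the value of 42.8, the change was 1.04 ± 0.08 (adjusted p = 2.70e-11). In blood Stat3 rose from a median of 266 (51.3 to 347) to 445 (239 to 844), with overlap and 24 of 25 pairs higher (1.10 ± 0.19, adjusted p = 0.000109). The value of 51.3 is blood control 9, an array that correlated poorly with its group (0.666). Without the 3 blood pairs holding an outlying array the change of Stat3 was 0.85 ± 0.13 (22 pairs). In breast it rose from 940.9 (449 to 1957) to 1974 (949 to 4943), in 23 of 25 pairs (1.09 ± 0.14, adjusted p = 6.72e-08). The spleen level was high in both groups, with medians of 2509 and 2437, and its change did not pass (-0.03 ± 0.05, adjusted p = 0.623). Thymus was likewise not called (0.10 ± 0.08). Of the other 3 Stat3 probe sets, 2 rose in breast, liver and blood alike, with changes between 0.66 and 1.17, and the dim 1424272_at rose in liver only (0.24 ± 0.06). Without the pairs holding an outlying array, 1424272_at also rose in breast (0.13 ± 0.05, adjusted p = 0.0222, 22 pairs).

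Socs3, the feedback inhibitor of gp130, had the largest change of the 9 genes in liver, spleen and blood. In liver controls ran from 58.6 to 438 (median 249.5) and tumor-bearing mice from 774 to 3087 (median 1906). The groups did not overlap, and all 25 pairs were higher (3.02 ± 0.18, an 8.13-fold rise, adjusted p = 3.75e-13). In blood controls ran from 30.0 to 642 (median 222) and tumor-bearing mice from 694 to 3632 (median 1305). These groups did not overlap either, as for 67 genes or 0.368% of those tested in blood (2.70 ± 0.23, a 6.48-fold rise, adjusted p = 1.58e-09, 25 of 25 pairs). The value of 30.0 is blood control 9, an array that correlated poorly with its group (0.666). Without the 3 blood pairs holding an outlying array the change of Socs3 was 2.51 ± 0.20 (22 pairs). In spleen the median went from 577 (146 to 862) to 1569 (671 to 2594), with overlapping groups and again all 25 pairs higher (1.45 ± 0.12, a 2.73-fold rise, adjusted p = 6.21e-10). Without the pairs of spleen controls 13 and 21, which gave the lowest control values, it was 1.33 ± 0.09 (23 pairs). In breast it went from 562 (225 to 1789) to 1268 (546.5 to 2299), in 23 of 25 pairs (1.07 ± 0.14, adjusted p = 2.02e-07). In thymus the medians were 746 and 808 and the groups covered nearly the same range (0.14 ± 0.10, adjusted p = 0.995, 16 of 25 pairs higher). All 3 Socs3 probe sets rose in breast, liver, spleen and blood, and 0 of 3 in thymus. Over all probe sets, 58.3% were called in either direction in breast, 38.7% in spleen, 10.4% in blood and 0.00444% in thymus.

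**Figure D4:**
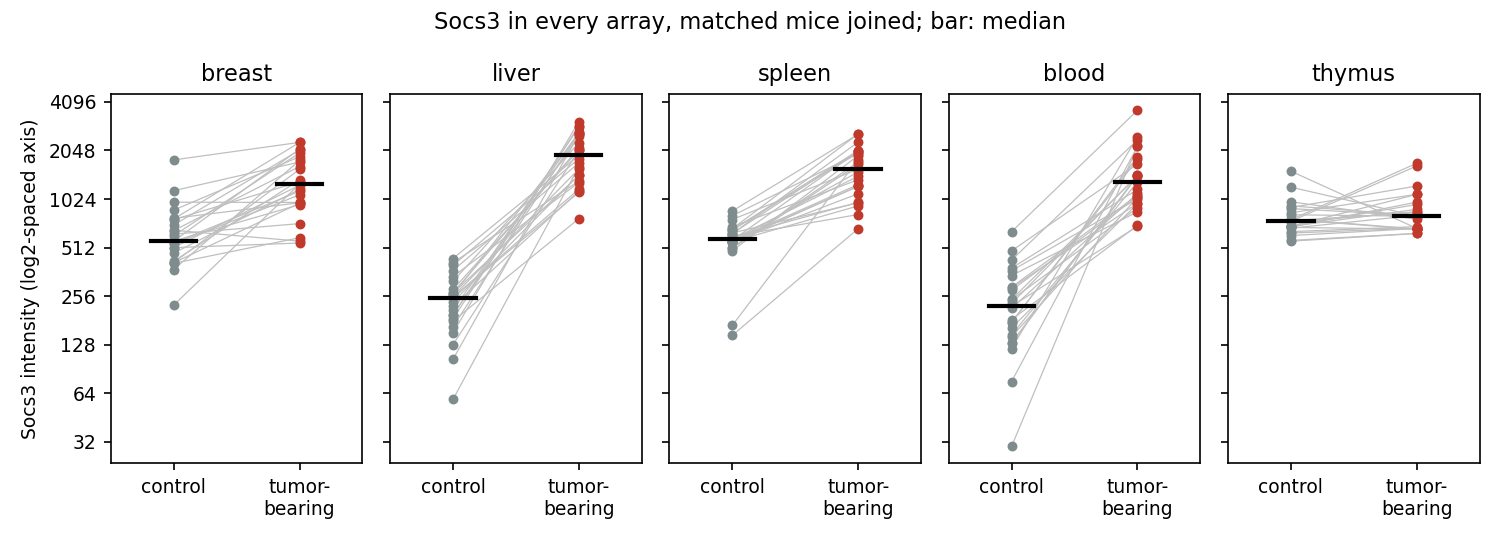
Socs3 intensity in every array (y axis, log2-spaced) of 5 tissues, control and tumor-bearing, with matched mice joined and a bar at the median. In liver and blood every tumor-bearing array lies above every control array, in spleen every line goes up, and in thymus the groups overlap, with medians of 746 and 808.

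Socs3, Osmr and Stat3, 3 of the genes that rose together in liver, are shown with the 250 bases before their RefSeq start site (build GRCm38.p6), because STAT3 acts through promoter sites with the motif TTCNNNGAA. This motif reads the same on both strands. Promoter entries were matched for 8 of the 9 genes (9 promoters, since Lifr has 2), and in windows that also held the first 50 transcribed bases only the Socs3 promoter contained the motif, once. Of all 32851 promoters of that length, 2726 contained it, or 8.3%. The match begins 154 bases before the Socs3 start and is in capitals below. Socs3 lies at chr11:117969367-117969616 (minus strand), Osmr at chr15:6874314-6874563 (minus strand) and Stat3 at chr11:100939541-100939790 (minus strand).
Socs3: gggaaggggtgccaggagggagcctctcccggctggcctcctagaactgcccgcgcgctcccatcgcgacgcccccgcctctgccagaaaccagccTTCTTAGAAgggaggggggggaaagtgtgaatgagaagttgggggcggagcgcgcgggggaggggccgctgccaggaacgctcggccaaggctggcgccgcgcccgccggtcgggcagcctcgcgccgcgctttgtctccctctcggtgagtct
Osmr: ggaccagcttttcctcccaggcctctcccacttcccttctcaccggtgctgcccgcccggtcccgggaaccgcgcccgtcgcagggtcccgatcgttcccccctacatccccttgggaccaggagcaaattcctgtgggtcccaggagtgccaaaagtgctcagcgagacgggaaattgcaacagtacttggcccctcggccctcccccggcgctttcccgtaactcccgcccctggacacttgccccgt
Stat3: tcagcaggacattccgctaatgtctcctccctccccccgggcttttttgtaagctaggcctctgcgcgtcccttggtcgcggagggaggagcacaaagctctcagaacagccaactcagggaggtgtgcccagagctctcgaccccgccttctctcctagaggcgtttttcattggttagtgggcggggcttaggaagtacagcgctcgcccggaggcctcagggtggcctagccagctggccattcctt
The match is a description of these letters, and binding was not measured here.

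The size of the change differed between the distant tissues for 6 of the 9 genes in a moderated F test over liver, spleen, blood and thymus, where 29.1% of all genes passed. These were Osm, Il6ra, Osmr (with its blood values at the floor), Il6st, Stat3 and Socs3. The test treats the tissues as independent and does not use links between tissues taken from the same mice. Liver exceeded spleen for Osmr (by 1.49 ± 0.14), Il6st (1.26 ± 0.25), Stat3 (1.26 ± 0.21), Socs3 (1.58 ± 0.24) and Il6ra (0.71 ± 0.23), and spleen exceeded liver for Osm, with 18.4% of genes called in this contrast. Between liver and blood, where 12.7% of genes were called, Il6st (1.45 ± 0.25) was higher in liver and Osm in blood (liver minus blood -0.90 ± 0.16). The liver-blood differences of Socs3 (0.33 ± 0.24, adjusted p = 0.422), Stat3 (0.13 ± 0.21) and Il6ra (-0.12 ± 0.23) did not pass. Blood exceeded spleen for Socs3 (spleen minus blood -1.25 ± 0.24), Stat3 (-1.13 ± 0.21) and Il6ra (-0.83 ± 0.23), with 15.5% of genes called. Against thymus, Osmr, Il6st, Stat3 and Socs3 were higher in liver (4.55% of genes called), Osm and Socs3 in spleen (16% called), and Osm, Il6ra, Stat3 and Socs3 in blood (7.83% called). Osmr is not compared with blood, where it was at the floor.

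The rest of the pathway was taken from lists of other family ligands, receptors, kinases, STATs, inhibitors and sheddases. Of all genes, 30% rose and 32.3% fell in breast, and 22.4% rose and 18.3% fell in spleen. In liver 7.89% rose and 2.28% fell, and in blood 8.66% and 4.27%. The counts from these short lists are to be read beside those shares. Among 5 other receptors measured, Csf3r, the granulocyte colony-stimulating factor receptor, rose in breast (0.79 ± 0.13), liver (1.29 ± 0.13), spleen (2.68 ± 0.18) and blood (2.61 ± 0.22). In spleen and blood it was the only one to rise, and the leptin receptor gene Lepr fell in spleen (-0.62 ± 0.07). In breast 4 of the 5 fell, among them Il27ra (-1.05 ± 0.24) and Il31ra (-0.54 ± 0.12). Of 5 other ligands, Ebi3, a subunit shared by interleukin 27 and interleukin 35, rose in liver (0.25 ± 0.05), spleen (0.71 ± 0.13) and blood (1.18 ± 0.15) and fell in breast (-0.41 ± 0.12). Clcf1, a ligand of the ciliary neurotrophic factor receptor, fell in spleen (-0.83 ± 0.23) and blood (-0.88 ± 0.19). Of the 3 Janus kinase genes, Jak1 (0.56 ± 0.17) and Jak2 (0.41 ± 0.13) rose in liver, 0 were called in spleen, blood or thymus, and in breast Jak1 fell (-0.35 ± 0.10) and Tyk2 rose (0.19 ± 0.06).

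Of the 5 other STAT genes measured, 0 were called in liver, where Stat3 rose. In breast 3 fell, Stat4 (-1.12 ± 0.24), Stat5b (-1.06 ± 0.12) and Stat5a (-0.81 ± 0.10), and 1 rose. In spleen Stat2 (-0.52 ± 0.10) and Stat6 (-0.25 ± 0.08) fell, and in blood Stat6 rose (0.64 ± 0.16) and Stat4 fell (-0.51 ± 0.16). Among 10 other inhibitors, only the phosphatase gene Ptpn1 rose in liver (0.65 ± 0.12) and only the phosphatase gene Ptpn6 in blood (0.88 ± 0.24). In breast 6 rose, led by the suppressors Socs2 (2.21 ± 0.22) and Socs5 (2.18 ± 0.16) and the phosphatase gene Ptpn2 (0.89 ± 0.07). In spleen 2 rose, Cish among them (0.70 ± 0.17), and 3 fell, including Socs5 (-0.40 ± 0.05) and Socs1 (-0.26 ± 0.11). These spleen counts, of 10 inhibitors, lie near the shares of all genes that rose and fell there (22.4% and 18.3%). In breast those shares were 30% and 32.3%. Both sheddase genes rose in breast, Adam10 (0.54 ± 0.07) and Adam17 (0.37 ± 0.07), the latter known to cut the IL-6 receptor from the cell surface. Adam10 also rose in spleen (0.33 ± 0.05) and Adam17 in blood (0.45 ± 0.14).

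Of 15 measured transcription and survival targets of STAT3, 9 rose and 0 fell in liver (median change 0.63, against 0.01 over all genes), and 11 rose and 0 fell in blood (median 0.84, against -0.03). In spleen 8 rose and 0 fell (median 0.30, against 0.00), in breast 11 rose and 3 fell (median 0.72, against -0.03), and in thymus 0 were called (median 0.07). Cebpd, a transcription factor of the acute phase and of granulocytes, was among the 3 largest in each of the first 4 tissues, with 1.36 ± 0.11 in liver, 2.83 ± 0.22 in blood, 1.43 ± 0.11 in spleen and 1.13 ± 0.13 in breast. Others were the interleukin 1 receptor gene Il1r1 (1.43 ± 0.17) and Junb (1.38 ± 0.17) in liver, Fosl2 (2.13 ± 0.19) and Bcl6 (2.04 ± 0.24) in blood, Fosl2 (1.40 ± 0.15) and the kinase gene Pim1 (1.21 ± 0.14) in spleen, and Junb (2.16 ± 0.24) and Fos (1.46 ± 0.23) in breast. Of 23 measured acute phase targets, 15 rose and 1 fell in liver (median 0.79). Lipocalin 2 (Lcn2, 4.17 ± 0.21), serum amyloid A2 (Saa2, 3.54 ± 0.24) and orosomucoid 2 (Orm2, 3.17 ± 0.23) led them, each higher in 25 of 25 pairs. Outside liver the same list gave 8 that rose and 2 that fell in spleen, 5 and 0 in blood, 7 and 7 in breast, and 0 in thymus, with medians of 0.02, -0.22, -0.19 and 0.30. The breast counts, of 23 genes, lie near the shares of all genes that rose and fell there (30% and 32.3%). Haptoglobin (Hp, 3.52 ± 0.21 in spleen, 2.86 ± 0.25 in blood), the metalloreductase gene Steap4 (2.49 ± 0.16 and 4.77 ± 0.26) and Lcn2 (2.47 ± 0.25 and 4.83 ± 0.40) led in both. In breast Orm1 fell (-4.69 ± 0.40) while Saa3 (2.76 ± 0.28) and Lbp (2.68 ± 0.24) rose. Across the 25 liver pairs, the change of Socs3 correlated with the mean change of the acute phase list (r = 0.50, adjusted permutation p = 0.00432, rho = 0.52, adjusted permutation p = 0.0211). It was 0.49 without the 2 pairs farthest from the median, 0.65 within the 10 pairs of the earlier sample numbers and 0.25 within the 15 of the later ones.

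Marker genes of other cells moved with these results. Of 13 measured neutrophil genes, the tumor-bearing mice had 12 that rose in liver, 13 in spleen and 9 in blood, beside 7 in breast (where 1 fell) and 2 in thymus. Their mean level ran from 5.06 to 5.87 in control livers and from 6.23 to 9.84 in tumor-bearing livers, and from 5.62 to 7.48 and from 8.11 to 10.6 in the blood groups (log2). In spleen it ran from 6.78 to 10.9 in controls and from 7.70 to 13.2 in tumor-bearing mice. Both lower ends belong to spleen pair 21, whose arrays are poor in B cell markers. The primary granule protease gene Prtn3 led in liver (5.75 ± 0.13) and spleen (3.27 ± 0.26), the granule protein genes Ngp (4.89 ± 0.34) and Ltf (4.32 ± 0.35) in blood, and S100a9 in thymus (2.21 ± 0.39). In liver 5 of 7 fibroblast and 4 of 14 macrophage genes also rose, while the hepatocyte list moved by 0.04 ± 0.11. In breast all 9 adipocyte genes, all 7 skeletal muscle genes and all 6 endothelial genes measured fell, as did all 8 T cell and all 7 B cell genes (mean change -1.53 for each list), and 6 of 9 mammary epithelial genes rose. In blood 6 of 7 B cell and 3 of 8 T cell genes fell, and in spleen 2 of 7 and 1 of 8. The spleen means of these lists were nonetheless higher in only 2 pairs each (B cell -0.50 ± 0.28, T cell -0.49 ± 0.35). These means include spleen controls 13 and 21, whose B cell marker means were 6.27 and 6.41, against 11.66 for the median spleen array. Of 4 erythroid genes measured, 2 rose in liver, 3 in spleen and 2 in blood. The log2 ratio of the 3 prime to the 5 prime Gapdh probe sets, a sign of RNA quality, fell in breast by 0.76 ± 0.17. Shifts in the other tissues lay between -0.05 and 0.12. The part of these shifts in the changes of the IL-6 family genes was not tested.

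The within-pair changes of Socs3, Osm and Il6ra were set against the mean change of the neutrophil list over the 25 pairs of each tissue (16 relations with the acute phase one, adjusted together, and both values of a pair come from the same arrays). Socs3 followed the neutrophil list most closely in blood (r = 0.83, adjusted permutation p = 0.00016, rho = 0.83), where the unadjusted p of 1e-05 is the smallest these permutations can give. There r was 0.72 without the 2 farthest pairs, and 0.64 and 0.89 within the earlier and later sample numbers. It also did so in breast (r = 0.63, adjusted permutation p = 0.00331, rho = 0.70, 0.62 without the 2 farthest pairs, 0.79 and 0.56 by series). In spleen r was 0.59 (adjusted permutation p = 0.00588, 0.45 without the 2 farthest pairs, 0.93 and 0.52 by series), but rho was 0.44 and missed the threshold (adjusted permutation p = 0.0621). The largest list change in spleen (5.12) is that of pair 13, whose control is poor in B cell markers. In thymus r of 0.69 (adjusted permutation p = 0.00304, rho = 0.60) dropped to 0.36 without the 2 farthest pairs, so that the linear relation rests on them. The lowest list change in thymus (-4.17) is that of pair 20. Its control is poor in thymocyte markers and had a neutrophil marker mean of 12.2, against 7.76 for the median thymus array. In liver, where Socs3 rose most, the pooled relation did not pass (r = 0.38, adjusted permutation p = 0.106, rho = 0.34), while r was 0.62 and 0.45 within the earlier and later sample numbers, both above the pooled value and neither tested. Osm followed the list in spleen (r = 0.60, adjusted permutation p = 0.00451, rho = 0.64, 0.67 without the 2 farthest pairs), but not in blood (r = 0.36, adjusted permutation p = 0.127). Il6ra did so in blood (r = 0.57, adjusted permutation p = 0.00588, rho = 0.60, 0.50 without the 2 farthest pairs), and in thymus by r (0.61) but not by rho (0.44, adjusted permutation p = 0.0621). Its relation in liver was not called (r = -0.19, adjusted permutation p = 0.466). The remaining 5 relations of Osm and Il6ra, with r between 0.11 and 0.34, did not pass.

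**Figure D5:**
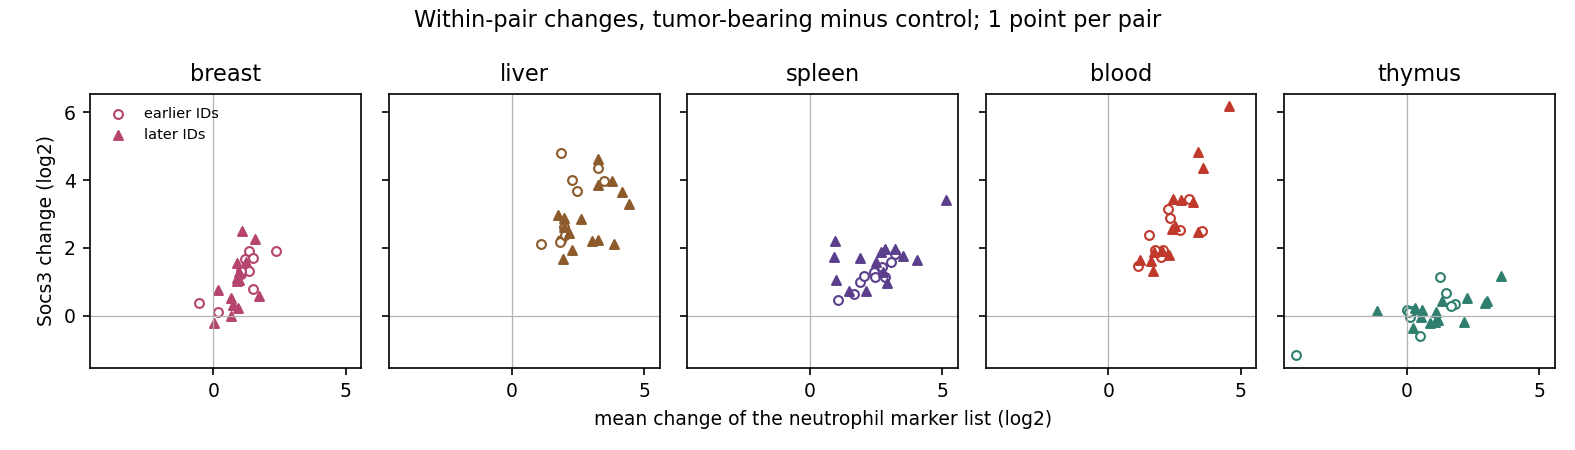
Within-pair change of Socs3 (y axis, log2) against the mean change of the neutrophil marker list (x axis, log2), 1 point per matched pair in each tissue, with open circles for earlier and triangles for later sample numbers. The blood points line up (r = 0.83), the liver points lie high (pooled r = 0.38), and 1 thymus pair, pair 20, lies far to the lower left.

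The genes whose 25 within-pair changes were most like those of Socs3, among 9095 genes above the median level of the tissue, differed between tissues. In blood they were Pgd (r = 0.93), Anxa1 (0.93), Rgs2 (0.92), Tbc1d15 (0.92) and Atxn10 (0.92). In spleen they were Ifitm1 (0.89), Myd88 (0.89), Pim1 (0.89), Csf2rb (0.87) and Pla2g4a (0.87). In breast they were Cd44 (0.87), Ttc39b (0.85), Rai14 (0.84), Rassf4 (0.84) and Myof (0.84). In liver the likeness was lower, with Vasn (0.80), Fbxo28 (0.79), Usp6nl (0.79), Tbc1d24 (0.77) and Rpap3 (0.76). These were the highest of many correlations and are given as a description, with no test.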

How the data were processed

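The deposited values are linear probe set intensity from Affymetrix Mouse Genome 430 2.0 arrays, per the labels, on RNA extracted with Trizol from whole tissue. How they were summarised and normalized is not given in the sources used here. Pairs and groups came from the labels. A floor at the 5th percentile of the whole table (11.3) was set before log2 was taken. Of 45101 probe sets, 34958 had 1 symbol, 932 several and 9211 none here. Symbols followed GRCm38.p6 (34754 matched by Entrez number, 204 kept as listed), and the probe set with the highest mean stood for a gene. Each tissue was fitted by limma 3.58.1 (R 4.3.3) with pair blocks and Benjamini-Hochberg adjustment over 18193 genes, or over 45037 probe sets for results by probe set. The fit was tested on simulated data. Whether pairs deviate together was checked: after group means were removed, the median correlation within pairs ran from 0.08 in breast to 0.31 in liver. Correlations used 100000 permutations (two-sided) in scipy 1.17.1. Named genes were the 9 members, up to 3 called genes with the largest change per pathway or target list and tissue, markers by list, and the 5 genes most like Socs3 per tissue. The genes and lists were chosen with earlier results of these data known. Alternatives covered the block, the floor, quantile normalization, probe set choice, a level filter, outlying arrays, the sample number and array name series, and a Gapdh covariate. The number of arrays limits the precision.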

Additional observations from a re-analysis of the deposited data

Results flagged for a closer look

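The change between tumor-bearing and control mice differed between liver, spleen, blood and thymus in limma's moderated F test for 6 of the 9 genes, where 29.1% of all genes passed. For Osmr the adjusted p was 1.91e-23, with changes of 1.96 in liver, 0.47 in spleen, -0.01 in blood (at the floor) and 0.44 in thymus. For Socs3 it was 1.72e-20, with changes of 3.02, 1.45, 2.70 and 0.14 in the same order. For Stat3 it was 7.69e-09 (1.23, -0.03, 1.10 and 0.10). For Osm it was 2.41e-07 (-0.06, 0.48, 0.84 and -0.11). For Il6st it was 3.03e-06 (1.03, -0.22, -0.42 and 0.19). For Il6ra it was 0.00254 (0.66, -0.05, 0.78 and 0.12). The same number of genes, 6 of 9, passed without the pairs holding outlying arrays, without the pairs poor in tissue markers, without the floor and after quantile normalization. The shares of all genes passing under those settings are not given here.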

How the results depend on the processing

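In the fits within a tissue, these passed under every alternative that gave a value: Osmr, Lifr, Il6st, Stat3 and Socs3 in breast, Osmr and Socs3 in liver, Il6, Osm, Osmr, Il6st and Socs3 in spleen, and Socs3 in blood. The matched pairs come from the labels, and without the replicate block the counts that rose were 5 each in breast and liver, 4 each in spleen and blood and 0 in thymus, with no call changed. Without pairs holding an outlying array, Il6 rose in liver (0.10) and Lifr fell (-0.19), both reversed in direction, and the number that fell became 1 in liver, 3 in spleen and 1 in blood. In that setting 37.5% of all liver genes were called in either direction. Shares of all genes for the other tissues and alternatives are not given here, so those counts have no background beside them. In the 15 later pairs alone Lifr fell in liver (-0.18), so that 1 gene fell there. In the 10 earlier pairs alone Osm in breast reversed (0.033, not called), and the counts became 3 rising and 2 falling in breast, 2 rising in liver, 2 falling in spleen and 1 rising in blood, with liver Stat3 at 1.55 and Il6st at 1.36 but not called. These liver means include pairs 2 and 7, whose controls are outlying arrays. Leaving out genes under the median level left 3 rising and 2 falling in breast, since dim genes were then not tested. After quantile normalization 2 fell in spleen and 1 in blood, and with the Gapdh ratio as a covariate 2 fell in spleen. Leaving out pairs poor in tissue markers, added after the data were seen, gave 3 falling in spleen. Other calls lost were Osm in breast (-0.05, quantile normalization), Il6ra in breast (-0.16, mean of probe sets) and Il6 in breast (0.31, Gapdh covariate). The cause of these shifts was not tested. Over all fits, 22 values called in neither fit changed sign, so no direction is read from members that were not called. Signal near background limits Il6 in liver and blood and Osmr in blood.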
